A study of Mus musculus with 6 samples.

Results

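The 36 genes described here are targets that the tumour suppressor p53 is known to activate: effectors of growth arrest, cell death and DNA repair, and genes of metabolism, redox control and cell signalling. They were taken by name from a list that was chosen with earlier results of these data known. Of them, 33 had an array row annotated to that gene alone, out of 22180 genes measured in this way. No row was analysed for Gdf15 and Fdxr, and the row of Ddb2 also covers the neighbouring gene Acp2. The cells were mouse embryonic stem cells (ESCs) without Dgcr8 (Dgcr8-/- ESCs), so both groups lacked the partner of the Drosha nuclease that is needed to make canonical miRNAs. The control group of 3 samples received a control hairpin. The other 3 samples received sh-miR-302, a construct that expresses mimics of miR-302. The labels call the samples of a group independent and do not say which miR-302 family member was expressed or whether a line was 1 clone. Dgcr8 shares its row with another gene and is missing from both groups, so it cannot check the labels, and the level of miR-302 was not analysed here. The series title names elevated p53 activity in stem cells without miRNAs, and setting miR-302 samples against control hairpin samples shows how far these p53-activated transcripts differed once a single miRNA family was given back.

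p53 is a transcription factor that is kept low by the ubiquitin ligase Mdm2 and that accumulates after DNA damage and other stress. It binds DNA as a tetramer at sites built from a pair of half-sites and raises genes that stop the cell cycle, repair DNA, adjust metabolism or start apoptosis. In ESCs it also takes part in leaving the pluripotent state. Most of the genes described here also answer to other factors, so their levels are not a reading of p53 alone.

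Mature miR-302 strands are shown because 1 group was given mimics of this family, with the seed (bases 2 to 8, the part that pairs with target transcripts) in capitals and the sequences from RefSeq (GRCm38.p6). miR-294-3p, one of the most abundant miRNAs of normal ESCs and absent without Dgcr8, is set beside them for its shared seed.
mmu-miR-302b-3p: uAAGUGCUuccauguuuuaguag
mmu-miR-302d-3p: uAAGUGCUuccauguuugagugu
mmu-miR-302c-3p: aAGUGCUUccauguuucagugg
mmu-miR-294-3p: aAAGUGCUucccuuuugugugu
The first pair and miR-294-3p have the seed AAGUGCU. The RefSeq entry of miR-302c-3p starts 1 base further in and its bases 2 to 8 read AGUGCUU.

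With miR-302 the p53-activated genes did not move as a block. Of the 33 measured, 7 were higher, 4 were lower and 22 did not pass the test (limma over all 22180 genes, adjusted p under 0.05). The 7 higher genes were Triap1, Perp and Aen of the cell death group, the polymerase gene Polk, the enzyme genes Dcxr and Abhd4, and the tetraspanin gene Cd82. The 4 lower genes were the epoxide hydrolase gene Ephx1, the receptor gene Notch1, the spindle gene Psrc1 and the antiproliferative gene Btg1. The share called was 33.3% of the members against 16.4% of all genes, 7.18% of all genes being higher and 9.25% lower. Calls were more frequent among genes of high level, and 32 of the 33 members lay at or above the median level of all genes. Of the genes at or above that level, 26.7% were called. The median level of the members lay at percentile 77.5 of all genes, so those genes match the members' level only in part. The median log2 difference was 0.02 over the members and 0.01 over all genes, with 17 members above 0 and 16 below it. The groups of arrays did not overlap for 18 members, 9 higher and 9 lower. They did not overlap for 35.8% of all genes, 16.8% of all genes being higher and 19% lower. The shares of all genes given for overlap, for size of change and for replicate 1 were not restricted to genes of high level.

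Most of the differences were small. A change of at least 1.5-fold was seen in 4 of the 33 members (12.1%) and in 8.31% of all genes. Of the 11 called members, 3 changed at least 1.5-fold (Ephx1, Triap1 and Notch1), 27.3% against 42.8% of the 3643 genes called in all. Of the 22 members that were not called, 18 had a 95% confidence interval of the difference, unadjusted for the number of genes, that lay wholly within 1.5-fold in either direction. The other 4 were Sfn, Sesn1, Steap3 and Lif.

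**Figure D1:**
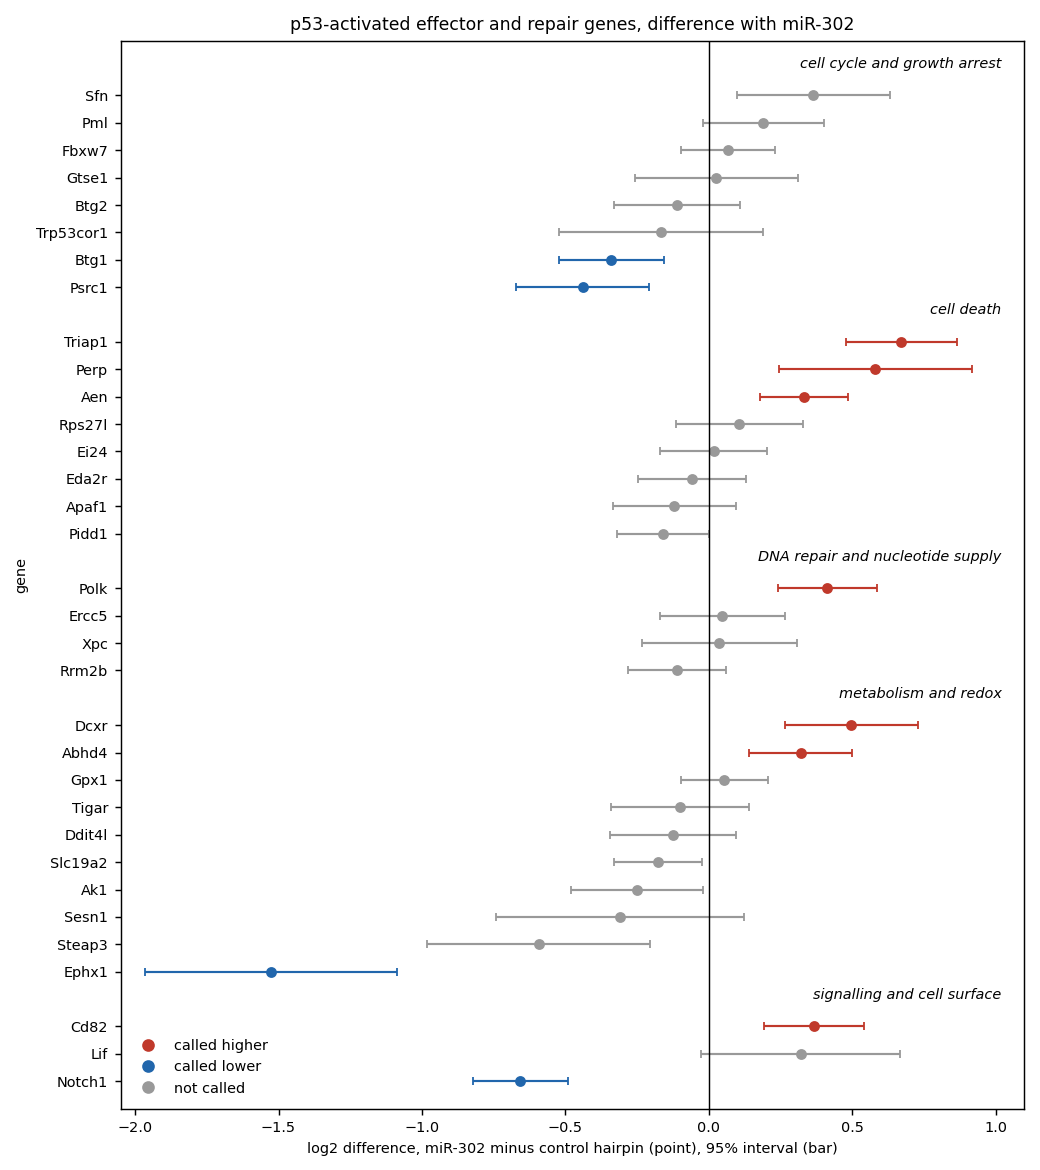
Log2 difference of each of the 33 measured genes, miR-302 minus control hairpin (x axis; point, with its unadjusted 95% confidence interval as a bar), grouped by role, with called genes in red (higher) and blue (lower) and the others in grey. Higher and lower genes stand side by side in the metabolism and redox group and in the signalling group. The 3 called of 8 cell death genes are higher and the 2 called of 8 cell cycle genes lower, beside 16.4% of all genes called. Ephx1 at −1.53 lies far from the rest.

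The 6 arrays were even in level, with medians of 5.60 to 5.62 (log2), and their number limits the precision of every value. miR-302 replicate 1 differed from miR-302 replicates 2 and 3, and results that turn on it are given with and without it. Leaving it out enlarged some differences and shrank others. Where it was the miR-302 array nearest the controls, leaving it out was bound to enlarge the difference, so those values are no separate evidence of a change. Of 10 markers of pluripotent cells, all but Dppa5a lay well above the array medians in both groups, and 0 passed the test (limma). The mean log2 level over the list was 10.61 to 10.64 on the control arrays and 10.47 to 10.75 on the miR-302 arrays. Sox2 and Zfp42 were lower on every miR-302 array than on any control, and Tdgf1, Utf1 and Sall4 were higher. The groups overlapped for the others. Of 10 markers of trophectoderm and simple epithelium, 8 were higher and none lower, with list means of 6.48 to 6.58 on the control arrays, 7.70 on miR-302 replicate 1, and 8.58 and 8.59 on replicates 2 and 3. Among the miR-302 arrays, Gata3 alone of these 10 was not lowest on replicate 1, at 7.78 against 7.45 and 7.68. The gap to replicates 2 and 3 was widest for the keratins, such as Krt18 at 9.86 against 11.82 and 11.68. Of 10 fibroblast markers 0 were higher and 1 was lower (list means 5.34 to 5.37 and 5.33 to 5.54), and of 8 primitive endoderm markers 4 were higher and 1 lower (5.53 to 5.67 and 6.0 to 6.03). Fewer cells of a type and less RNA per cell cannot be told apart in such bulk samples.

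In the cell death group, 3 of 8 genes were higher, none was lower and 5 were not called. The share called was 37.5% here, and 25%, 25%, 30% and 66.7% in the cell cycle, repair, metabolism and signalling groups described below. It was 16.4% of all genes and 26.7% of genes at or above the median level. With so few genes in each group, differences between these shares were not tested. Triap1, which encodes a small mitochondrial protein that restrains apoptosis, was 7.88, 7.91 and 7.95 on the control arrays and 8.47, 8.70 and 8.58 on the miR-302 arrays. All 3 miR-302 arrays were above all 3 controls, by far more than the spread within either group. Its log2 difference was 0.67 ± 0.08 (SE), 1.59-fold (limma, adjusted p = 0.00360), and the call held when any 1 array was left out. Perp, which encodes a membrane protein of desmosomes, was 9.47, 9.35 and 9.30 in control cells and 9.64, 10.07 and 10.15 with miR-302. The groups did not overlap, but replicate 1 was nearer to the controls than to the other miR-302 arrays. The log2 difference was 0.58 ± 0.14 (SE; limma, adjusted p = 0.0356), and 0.74 (adjusted p = 0.00213) without miR-302 replicate 1. The call of Perp was lost without any 1 of the other 5 arrays, with adjusted p up to 0.118. Perp is also a gene of epithelia, and the mean of the trophectoderm and epithelium list was lowest on replicate 1 of the miR-302 arrays (above); the part of such cells in its rise was not tested.

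Aen, which encodes a nuclease that enhances apoptosis, was 7.89, 7.83 and 7.81 in control cells and 8.18, 8.16 and 8.19 with miR-302. The 3 miR-302 values lay within 0.03 of each other. The log2 difference was 0.33 ± 0.06 (SE; limma, adjusted p = 0.0165). The call needed all 3 controls and miR-302 replicates 2 and 3: leaving out any of these 5 raised the adjusted p, to at most 0.0720. Other death genes stayed close to control. Apaf1, which encodes the scaffold of the apoptosome, differed by −0.12 (95% interval −0.33 to 0.09), the ectodysplasin receptor gene Eda2r by −0.06 (−0.25 to 0.13), the autophagy gene Ei24 by 0.02 (−0.17 to 0.20) and the ribosomal protein gene Rps27l by 0.11 (−0.12 to 0.33). Rps27l has a close paralog, Rps27, and how far its probes tell the pair apart is not given in the sources used here. Pidd1, which encodes a death domain protein that activates a caspase, was 8.84, 8.74 and 8.82 in control cells and 8.63, 8.61 and 8.68 with miR-302. The groups did not overlap, yet the difference of −0.16 ± 0.07 (SE) did not pass the test (limma, adjusted p = 0.168).

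Of 8 genes of the cell cycle and growth arrest, 2 were lower, none was higher and 6 were not called. Psrc1, which encodes a microtubule protein of the mitotic spindle, was 11.47, 11.31 and 11.30 in control cells and 11.06, 10.92 and 10.78 with miR-302. All 3 miR-302 arrays were lower, with a log2 difference of −0.44 ± 0.10 (SE; limma, adjusted p = 0.0255). Btg1, whose protein slows proliferation and promotes mRNA decay, was 8.22, 8.39 and 8.27 in control cells and 8.0, 7.89 and 7.97 with miR-302. It was lower on every miR-302 array, with a log2 difference of −0.34 ± 0.08 (SE; limma, adjusted p = 0.0278). Leaving out miR-302 replicate 1 kept both calls, and leaving out any of the other 5 arrays ended them, with adjusted p up to 0.0910 for Psrc1 and 0.0966 for Btg1.

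Btg2, the relative of Btg1 that is the better known p53 target, was 9.79, 9.74 and 9.61 in control cells and 9.46, 9.68 and 9.67 with miR-302. The groups overlapped and the difference was −0.11 (95% interval −0.33 to 0.11, limma, adjusted p = 0.486). Without miR-302 replicate 1 the difference of Btg2 was −0.04. Gtse1, which encodes a microtubule protein that carries p53 out of the nucleus, differed by 0.03 (−0.26 to 0.31). Trp53cor1, the long noncoding RNA also known as lincRNA-p21 that lies beside Cdkn1a, was 7.30, 7.57 and 7.61 in control cells and 7.03, 7.48 and 7.47 with miR-302. Replicate 1 was the lowest array of each group, the groups overlapped, and the difference of −0.17 ± 0.15 (SE) did not pass the test (limma, adjusted p = 0.518). Without miR-302 replicate 1 the difference of Trp53cor1 was −0.02. Fbxw7, which encodes the substrate receptor of a ubiquitin ligase for cyclin E and Myc, differed by 0.07 (−0.10 to 0.23).

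Pml, which encodes the scaffold of PML nuclear bodies, was 10.49, 10.49 and 10.50 in control cells and 10.85, 10.58 and 10.62 with miR-302. All 3 miR-302 arrays were higher, replicate 1 by most, and the difference of 0.19 ± 0.09 (SE) did not pass the test (limma, adjusted p = 0.209). Without miR-302 replicate 1 the difference of Pml was 0.11. Sfn, the stratifin gene, whose product holds epithelial cells before mitosis, was 7.61, 7.70 and 7.68 in control cells and 7.79, 8.12 and 8.17 with miR-302. The groups did not overlap, but replicate 1 lay close to the controls. The difference of 0.36 ± 0.11 (SE) did not pass the test with all arrays (limma, adjusted p = 0.0739) and was 0.48 (adjusted p = 0.00479) without miR-302 replicate 1. Sfn, like Perp, is an epithelial gene whose value on replicate 1 was the miR-302 value nearest to the controls. The mean of the trophectoderm and epithelium list was also nearest to the controls there, mainly through its keratins (above). The part of such cells in the values of Sfn was not tested.

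**Figure D2:**
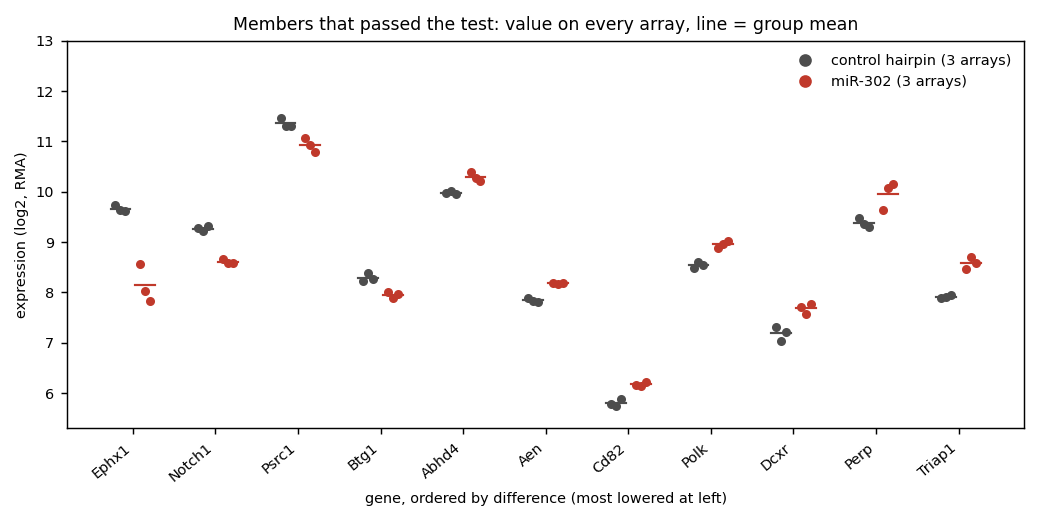
Log2 expression (y axis) of the 11 called members (x axis, ordered from the most lowered to the most raised) on each of the 3 control hairpin arrays (grey) and 3 miR-302 arrays (red), with lines at the group means. The groups are apart for every gene shown, and replicate 1 of miR-302, the leftmost red point, is the array nearest the controls for Ephx1 at 8.57 and for Perp at 9.64.

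Among the DNA repair genes, 1 of 4 was higher and 3 were not called. Polk, which encodes the translesion DNA polymerase kappa, was 8.49, 8.6 and 8.55 in control cells and 8.89, 8.97 and 9.02 with miR-302. The groups were well apart, with a log2 difference of 0.41 ± 0.07 (SE), 1.33-fold (limma, adjusted p = 0.0117). The call ended when control hairpin replicate 1 (limma, adjusted p = 0.0535) or replicate 3 (0.0510) was left out. The nucleotide excision repair genes Xpc, for damage recognition, and Ercc5, for an incision nuclease, differed by 0.04 (95% interval −0.23 to 0.31) and 0.05 (−0.17 to 0.27). Rrm2b, which encodes the ribonucleotide reductase subunit that supplies nucleotides for repair, was 7.38, 7.35 and 7.46 in control cells and 7.34, 7.30 and 7.22 with miR-302. All 3 miR-302 arrays were just below the controls, and the difference of −0.11 ± 0.07 (SE) did not pass the test (limma, adjusted p = 0.363). The row that covers both Ddb2, another damage recognition gene, and Acp2 was 7.76, 7.66 and 8.0 in control cells and 7.58, 7.27 and 7.39 with miR-302. It was lower on every miR-302 array, and which of the genes that reflects cannot be told from this row, which was left out of the test.

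The metabolism and redox group held the member that changed most. Of 10 genes, 2 were higher, 1 was lower and 7 were not called, and 7 of the 10 differences were below 0. Over all 22180 genes, 10893 differences were below 0. Among the 7 metabolic genes below 0, only Ephx1 was called. Ephx1, which encodes microsomal epoxide hydrolase, a detoxifying enzyme, was 9.74, 9.63 and 9.62 in control cells and 8.57, 8.02 and 7.82 with miR-302. Each miR-302 array was at least 1 log2 unit below each control. The log2 difference was −1.53 ± 0.18 (SE), 2.88-fold lower (limma, adjusted p = 0.00358), which placed it at rank 209 of the 22180 genes by size of change, and −1.74 without miR-302 replicate 1. The call held when any 1 array was left out. Dcxr, which encodes a carbonyl reductase of sugar metabolism, was 7.31, 7.03 and 7.22 in control cells and 7.71, 7.58 and 7.76 with miR-302. It was higher on all 3 arrays, by 0.50 ± 0.10 on the log2 scale (SE; limma, adjusted p = 0.0172), and its call ended when control hairpin replicate 2 (adjusted p = 0.0552) or 3 (0.0595) or miR-302 replicate 3 (0.0654) was left out. Abhd4, which encodes a lipase of N-acyl phospholipids, was 9.97, 10.01 and 9.95 in control cells and 10.40, 10.27 and 10.22 with miR-302. It too was higher on every array, by 0.32 ± 0.08 (SE, limma, adjusted p = 0.0314). The call ended, with adjusted p up to 0.111, when any array but miR-302 replicate 1 was left out. Without that replicate the difference of Abhd4 was 0.27.

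Several metabolic genes depended on miR-302 replicate 1. Steap3, which encodes an endosomal iron reductase, was 7.67, 7.47 and 7.63 in control cells and 7.37, 6.84 and 6.78 with miR-302. The groups did not overlap, and the difference of −0.59 ± 0.16 (SE) lay just past the threshold on the side of genes not called (limma, adjusted p = 0.0521), against −0.78 (adjusted p = 0.00218) without replicate 1. Sesn1, which encodes a sestrin that restrains the growth kinase complex mTORC1, was 8.39, 8.4 and 8.34 in control cells and 8.50, 7.76 and 7.94 with miR-302. Replicate 1 was above every control and the others were below every control, so the difference of −0.31 ± 0.18 (SE) did not pass the test with all arrays (limma, adjusted p = 0.311) and was −0.53 (adjusted p = 0.00667) without replicate 1. The adenylate kinase gene Ak1 was 8.73, 8.83 and 8.80 in control cells and 8.72, 8.42 and 8.47 with miR-302. Its difference was −0.25 (limma, adjusted p = 0.135) with all arrays and −0.34 (adjusted p = 0.0163) without replicate 1.

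The other metabolic genes differed little. The thiamine transporter gene Slc19a2 was 10.70, 10.67 and 10.67 in control cells and 10.54, 10.51 and 10.46 with miR-302. The groups did not overlap and each was tight, yet the difference of −0.18 ± 0.06 (SE) was not called (limma, adjusted p = 0.117). Tigar, which encodes a phosphatase that lowers glycolytic flux, differed by −0.10 (95% interval −0.34 to 0.14), the mTORC1 inhibitor gene Ddit4l by −0.12 (−0.34 to 0.10) and the glutathione peroxidase gene Gpx1 by 0.05 (−0.10 to 0.21).

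Of the 3 measured signalling genes, 1 was higher and 1 lower. Notch1, which encodes a receptor that directs cell fate, was 9.27, 9.21 and 9.32 in control cells and 8.67, 8.58 and 8.58 with miR-302. The fall was even across the 3 arrays, with a log2 difference of −0.66 ± 0.07 (SE), 1.58-fold lower (limma, adjusted p = 0.00242), and held when any 1 array was left out. Cd82, which encodes a tetraspanin of the cell surface, was 5.78, 5.74 and 5.89 in control cells and 6.15, 6.14 and 6.22 with miR-302. It was higher on every array, by 0.37 ± 0.07 (SE; limma, adjusted p = 0.0181). It is the 1 member below the median level of all genes. The call ended when control hairpin replicate 1 (limma, adjusted p = 0.0721) or 2 (0.0738) or miR-302 replicate 2 (0.0532) or 3 (0.0688) was left out. Lif, which encodes the cytokine that keeps mouse ESCs in the naive state, was 6.99, 6.80 and 6.73 in control cells and 6.86, 7.25 and 7.37 with miR-302. The groups overlapped through replicate 1. The difference was 0.32 ± 0.15 (SE; limma, adjusted p = 0.197) with all arrays and 0.47 (adjusted p = 0.0217) without it.

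**Figure D3:**
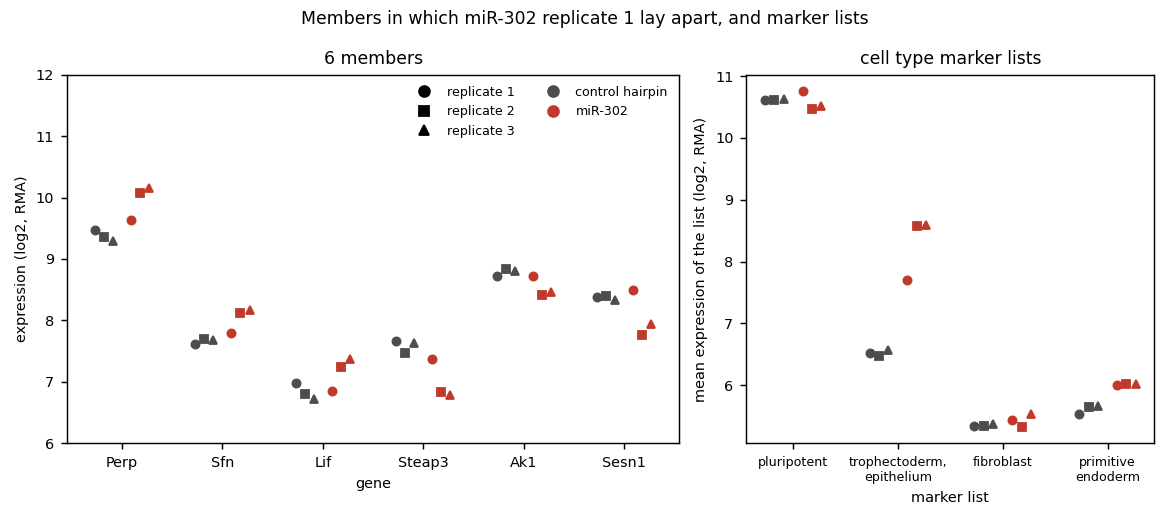
Left, log2 expression (y axis) of Perp and of the 5 members called without miR-302 replicate 1 but not with all arrays (x axis), control hairpin in grey and miR-302 in red, with a circle, square and triangle for replicates 1, 2 and 3. Right, the mean log2 level of 4 cell type marker lists on the same arrays; the red circle lies between the controls and the other miR-302 arrays for Perp, Sfn, Steap3 and Ak1 at left, and for the trophectoderm and epithelium list at right, where it is 7.70 against 8.58 and 8.59.

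Without miR-302 replicate 1, 9 members were higher and 7 lower, beside 24.3% of all genes called (11.2% higher and 13.1% lower). The 11 members called with all arrays kept their direction and call there, and Sfn, Lif, Steap3, Sesn1 and Ak1 were added. Without any 1 of the other arrays, 2 or 3 were higher and 2 lower. In these fits 7.79%, 8.03% and 7.86% of all genes were called without control hairpin replicate 1, 2 or 3, and 9.36% and 8.75% without miR-302 replicate 2 or 3. Ephx1, Notch1 and Triap1 had the same call in all 6 fits that left out 1 array, and the other 8 called members lost theirs in at least 1. Replicate 1 was the miR-302 array nearest to the control mean for 18 of the 33 members (54.5%) and for 39.0% of all genes, and for 7 of the 11 called members against 55.3% of all called genes.

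Matches to the p53 half-site in the promoters are shown because p53 binds DNA at sites built from a pair of half-sites. Only single half-sites close to the start were searched, and sites elsewhere were not. The window from 250 bases before to 50 after the RefSeq start (GRCm38.p6) was available for 31 of the 36 genes, and not for Trp53cor1, Perp, Ddb2, Rrm2b and Xpc. A match to the p53 half-site consensus, which is 10 bases long and reads alike on both strands, was found for 9 of the 31 (29.0%), and for 9.55% of the 27025 genes in the table. Of these 9 genes, 3 were higher (Polk, Aen and Abhd4), none was lower and 6 were not called (Sesn1, Rps27l, Ei24, Gtse1, Pml and Ddit4l). Of the 20 measured genes with a window and no match, 3 were higher, 4 lower and 13 not called. Of all genes, 7.18% were higher and 9.25% lower, and 26.7% of genes at or above the median level were called. A link between a match and a call was not tested. Windows of 30 bases around the match follow for the 3 higher genes and for 3 that were not called, with the match in capitals, on the gene's own strand.
Aen (chr7:78895927-78895956, plus strand): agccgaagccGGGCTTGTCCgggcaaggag
Abhd4 (chr14:54259274-54259303, plus strand): cgacccggcaGGGCTTGTTTactatggctg
Polk (chr13:96519399-96519428, minus strand): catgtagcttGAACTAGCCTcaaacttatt
Sesn1 (chr10:41887256-41887285, plus strand): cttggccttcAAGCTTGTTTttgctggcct
Ei24 (chr9:36797325-36797354, minus strand): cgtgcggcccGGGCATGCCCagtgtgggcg
Rps27l (chr9:66946296-66946325, plus strand): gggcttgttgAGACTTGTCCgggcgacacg
The match of Aen begins 11 bases after 1 annotated start and 121 before another, that of Abhd4 at base 2 after its start, and those of Polk, Sesn1, Ei24 and Rps27l 231, 173, 10 and 107 bases before theirs. Rps27l has a further match 210 bases before its start. A match is a description of these letters and not a measured binding site.

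Other genes of the p53 pathway also differed in both directions. Of 28 measured of 31 listed, 8 were higher, 5 lower and 15 not called, beside 7.18% higher and 9.25% lower of all genes, and 26.7% called among genes at or above the median level. Trp53 itself, Bax and Gadd45a had no row of their own. Mdm2, the ubiquitin ligase gene that p53 raises and that limits it, was 8.98, 9.09 and 9.06 in control cells and 9.64, 9.74 and 9.60 with miR-302. Every miR-302 array was higher, by 0.62 ± 0.07 (SE; limma, adjusted p = 0.00345). Plk2 and Plk3, which encode polo-like kinases, had log2 differences of 1.70 and 1.53, the RNA-binding protein gene Zmat3 0.34, the Akt inhibitor gene Phlda3 0.37, the cyclin G1 gene Ccng1 0.32, the transcriptional regulator gene Sertad1 0.28 and the death receptor gene Tnfrsf10b 0.26. Of these higher genes, Mdm2, Plk2 and Plk3 kept their call when any 1 array was left out.

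The 5 lower genes lie mostly upstream of p53. Chek2, which encodes a checkpoint kinase that phosphorylates p53 after DNA breaks, was 9.73, 9.69 and 9.68 in control cells and 8.96, 9.01 and 8.79 with miR-302. The groups were far apart, with a log2 difference of −0.78 ± 0.08 (SE), 1.72-fold lower (limma, adjusted p = 0.00219). The kinase genes Hipk2, Chek1 and Atr differed by −0.51, −0.38 and −0.29. The sestrin gene Sesn2 differed by −0.67, beside its relative Sesn1 described above. Cdkn1a, which encodes the p53-induced cell cycle inhibitor p21, was 11.50, 11.38 and 11.42 in control cells and 10.79, 11.21 and 11.26 with miR-302. All 3 miR-302 arrays were lower, replicate 1 by most, and the difference of −0.35 ± 0.13 (SE) did not pass the test (limma, adjusted p = 0.131). Without miR-302 replicate 1 the difference of Cdkn1a shrank to −0.20 (limma, adjusted p = 0.0951). Chek2 and Sesn2 kept their call when any 1 array was left out. Hipk2 lost its call without control hairpin replicate 1 (limma, adjusted p = 0.0582). Zmat3, Phlda3, Ccng1, Tnfrsf10b, Sertad1, Chek1 and Atr each lost theirs in 4 or 5 of the 6 fits that left out 1 array. Atr, at an adjusted p of 0.0480 (limma), also lost its call with all arrays kept when each array was centred on its median (adjusted p = 0.0513) and with quantile normalization (0.0578).

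**Figure D4:**
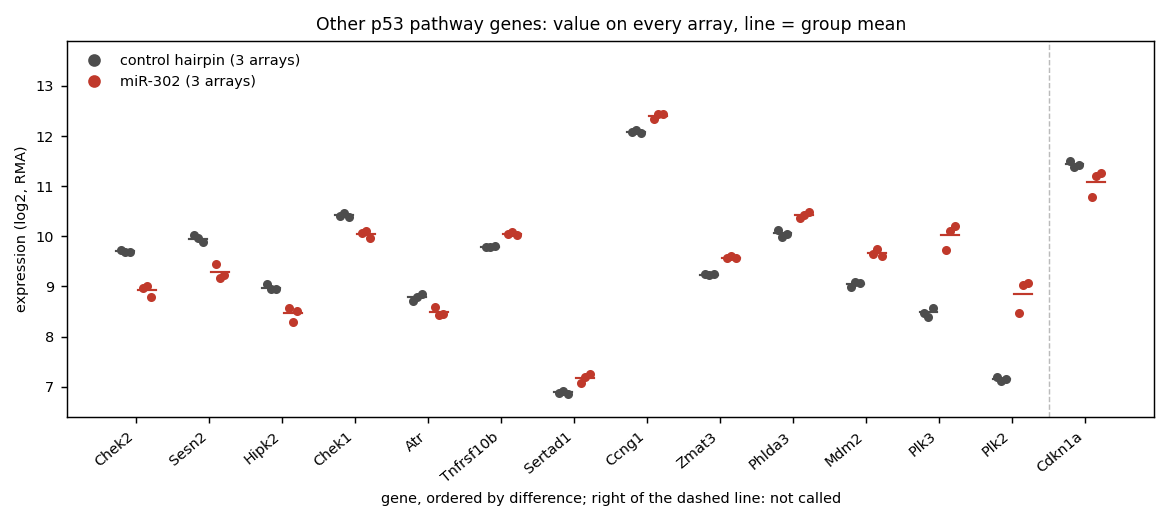
Log2 expression (y axis) of the 13 called genes of the p53 pathway outside the list of effectors, and of Cdkn1a, right of the dashed line, which was not called (x axis), on each control hairpin array (grey) and miR-302 array (red), with lines at the group means. The kinase genes Chek2, Hipk2, Chek1 and Atr are lower and Mdm2, Plk3 and Plk2 higher on every miR-302 array, and Cdkn1a is lower on every array with replicate 1 the lowest at 10.79.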

How the data were processed

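RNA of 6 samples was measured on single-colour arrays. The authors deposited log2 values for 33649 rows, made with RMA per the submitters' processing notes. Base 2, the usual base of RMA, was assumed, since none is stated. RMA equalises the distributions of arrays and hides any shift that all genes share. Detection calls were not used here, and 0 columns were without a sample. Groups came from the sample titles.

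Rows annotated to a single gene (23521) were kept, and the row with the highest mean stood for genes with several, which left 22180 genes. The test was limma's (version 3.58.1, R 4.3.3; lmFit, eBayes, two-sided), with Benjamini-Hochberg adjustment over all genes and a threshold of 0.05. Differences are miR-302 minus control hairpin on the log2 scale. On data simulated for this comparison over 22180 genes, 40.0%, 75.3% and 98.5% of genes changed 1.5-fold, 2-fold and 4-fold were recovered, and 12 of 157 calls were false.

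The members, their roles and the other lists were chosen with earlier results of these data known. All members could be named; called members are given on every array. The Perp and replicate 1 comparison and the promoter windows were chosen after the values were seen. The alternatives tried were a replicate block, fits without each array, a filter at the median level, a trended robust prior, centring, quantile normalization, a gene's mean row and array weights. Half-sites were searched in RefSeq promoters with Python 3.11.15, and figures were drawn with matplotlib 3.10.9.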

Additional observations from a re-analysis of the deposited data

How the results depend on the processing

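The 11 p53-activated genes called with all arrays kept their direction in every alternative that tested them; Cd82, below the median level, was not tested with that filter. The counts of members, 7 higher and 4 lower, were 2 to 9 and 2 to 7 when 1 array was left out. They were 4 and 3 with the replicate number as a block, and 9 and 7 with array weights. Of the other p53 pathway genes, 8 higher and 5 lower became 3 to 8 and 2 to 6 when 1 array was left out, and 3 higher with the block. Over all genes, 1592 higher and 2051 lower became 685 to 2484 and 1043 to 2911 when 1 array was left out, 964 and 1329 with the block, and 2617 higher with array weights. The block removed the calls of Btg1, Aen, Perp and Abhd4 and added none. Same-numbered samples did not deviate together (correlations over genes of 0.02, 0.02 and 0.01), so the numbers were not taken as pairs. Fewer arrays leave fewer degrees of freedom; the cause of other changes was not tested.

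The members' median difference of 0.02 was −0.043 with array weights and −0.038 to 0.03 when 1 array was left out, so its sign is not settled. Steap3, Sfn and Slc19a2 were also called with genes at or above the median level alone and with the intensity trend. Small differences that were not called changed sign. When 1 array was left out, Gtse1 ranged from −0.055 to 0.125, Ei24 from −0.03 to 0.052, Ercc5 from −0.017 to 0.108, Xpc from −0.08 to 0.125, Trp63 from −0.048 to 0.107, Trp73 from −0.297 to 0.163 and Cop1 from −0.0083 to 0.052. With array weights Gtse1 was −0.035, Ei24 −0.017 and Xpc −0.043. With 3 arrays a group, 75.3% of simulated 2-fold changes were recovered, in a setting where far fewer genes changed than were called here.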
